A study of Homo sapiens with 36 samples.

Results

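The 6 genes HLA-B, HLA-C, HLA-E, HLA-F, B2M and NLRC5 make up MHC class I molecules and one of their main transcriptional regulators. They were taken by symbol from the 26475 gene symbols of 1 count table, and all 6 passed the filter on low counts in each of the 4 experiments. RNA was sequenced from MDA-MB-468 (basal breast carcinoma), PANC-1 (pancreatic carcinoma) and WiDr (colorectal carcinoma) cells, with 36 libraries in 12 groups of 3. In each of the 3 lines, cells expressing a non-silencing short hairpin RNA were the control for cells expressing hairpin 1 or hairpin 2 against 1 target gene. WiDr cells were studied in a second experiment, in which a non-target guide RNA was the control for guide 1 and guide 2 against the same gene, the knock-out arm of the study. All lines were grown untreated in serum-supplemented medium. The labels do not say whether guide-bearing cells were a pool or a clone.

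Class I molecules sit on the surface of nearly all nucleated cells. A heavy chain, encoded by an HLA gene, pairs with beta-2-microglobulin (B2M) and holds a peptide cut from the cell's own proteins, which CD8+ T cells read. HLA-B and HLA-C are the classical, highly variable heavy chains, HLA-E presents leader peptides of other heavy chains to the NKG2A receptor of natural killer cells, and HLA-F is a less variable relative. NLRC5 is a NOD-like receptor protein that enters the nucleus and, with RFX, CREB/ATF and NF-Y proteins on the SXY module, activates class I and B2M promoters. In epithelial tumour cells the same promoters also answer to interferon through an interferon-stimulated response element and to NF-kB.

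HLA-F, HLA-E, HLA-C and HLA-B lie on chromosome 6 of GRCh38, in the major histocompatibility complex. Their main GENCODE 29 transcripts span chr6:29723279-29727296 (HLA-F, plus strand), chr6:30489467-30494205 (HLA-E, plus), chr6:31268749-31272086 (HLA-C, minus) and chr6:31353872-31357187 (HLA-B, minus). B2M lies at chr15:44711517-44718145 (plus, 4 exons) and NLRC5 at chr16:56989498-57083524 (plus, 49 exons). The HLA genes are close paralogs, so reads may be divided between them, and the alleles of a line may differ from the reference. HLA-F overlaps its antisense gene HLA-F-AS1 over 696 bases. As the strand setting of the counting is not given in the sources used here, reads of this pair cannot be told apart. HLA-C's transcript shares 2596 bases with the wide HLA-B gene span of GENCODE, and HLA-B contains MIR6891.

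The promoters of 3 of the genes are shown. The promoter reference used held no window for HLA-E or NLRC5. Any link between the motifs marked below and the changes in RNA was not tested. The sequences, from RefSeq (GRCh38.p14), run on the gene's strand. Those of HLA-C and B2M end at the RefSeq transcript start, which may differ from the GENCODE start given above. For HLA-B, 8 of the 250 bases lie inside the GENCODE transcript and were cut, so 242 are shown. They cover chr6:31357188-31357429 (HLA-B, minus), chr6:31272093-31272342 (HLA-C, minus) and chr15:44711267-44711516 (B2M, plus). Capitals mark every match, on either strand, to CCAAT (the NF-Y word), TGACG (part of the CREB/ATF site), AANNGAAA (a loose form of the interferon response element) and GGGNNTTCC (a loose NF-kB word).
HLA-B: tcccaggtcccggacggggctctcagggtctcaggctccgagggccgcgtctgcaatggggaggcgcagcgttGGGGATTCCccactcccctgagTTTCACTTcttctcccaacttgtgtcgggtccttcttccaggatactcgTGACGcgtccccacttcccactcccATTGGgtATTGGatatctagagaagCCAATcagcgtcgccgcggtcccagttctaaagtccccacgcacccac
HLA-C: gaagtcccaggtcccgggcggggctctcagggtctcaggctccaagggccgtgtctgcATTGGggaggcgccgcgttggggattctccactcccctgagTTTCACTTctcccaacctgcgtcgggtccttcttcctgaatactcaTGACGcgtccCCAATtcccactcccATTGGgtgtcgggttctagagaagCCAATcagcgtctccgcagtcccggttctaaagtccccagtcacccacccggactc
B2M: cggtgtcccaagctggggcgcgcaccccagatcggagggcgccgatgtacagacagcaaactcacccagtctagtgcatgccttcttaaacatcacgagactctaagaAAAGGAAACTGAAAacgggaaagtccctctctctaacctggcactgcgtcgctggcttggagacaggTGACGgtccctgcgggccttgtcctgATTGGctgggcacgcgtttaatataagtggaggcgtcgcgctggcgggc
The interferon-type word AANNGAAA occurred 1 time in HLA-B, 1 time in HLA-C and 2 times in B2M, where the 2 matches overlap. It was also found in 20.3% of 35116 promoter windows of 250 bases. CCAAT matched 3 times in HLA-B, 4 times in HLA-C and 1 time in B2M, against 32% of windows with any match. TGACG occurred 1 time in each of the 3 (21.2% of windows), and GGGNNTTCC in HLA-B alone of these (5.78% of windows). That word allows only 2 bases between GGG and TTCC. On its other strand, the B2M sequence holds GGG and TTCC with 3 bases between them, which the word cannot match. The lack of a match in B2M or HLA-C is therefore no evidence that an NF-kB site is absent. The window of HLA-F held 2 CCAAT and 1 AANNGAAA matches and no TGACG. Of its 250 bases, however, 155 lie inside the main GENCODE transcript of HLA-F, so it is not shown. Both CCAAT matches and most of the AANNGAAA match lie in that transcribed part. These matches are descriptions of the letters, and the motifs were chosen with these promoters in view.

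Levels are given as CPM, counts scaled to the size of the library, on a single scale over all 36 libraries, and differences as log2 fold changes with their standard error (SE). Library totals ran from 28371119 to 49237321 counts. MDA-MB-468 and WiDr carried epithelial markers of their tissues. A sum of 4 basal breast genes was 2493 to 4412 CPM in MDA-MB-468 and at most 11.3 CPM elsewhere. A sum of 5 intestinal genes was 632 to 1363 CPM in WiDr and at most 15.9 CPM elsewhere. No pancreatic markers were read for PANC-1. The share of ribosomal RNA genes was 5.38 to 10.2% in WiDr hairpin 2 libraries against 1.27 to 2.71% in the other 6 of that experiment. It was 4.61 to 9.60% in PANC-1 control libraries against 0.838 to 2.60% in the other 6. In MDA-MB-468 it was 2.23 to 8.49% in the control and 3.64 to 5.41% in the other 6. In the guide experiment it ran from 3.78 to 10.0%, both with guide 2. The part of this share in the results below was tested only by leaving these genes out, which changed no call on the 6 genes. That refit cannot test other differences between libraries that may go with the share. The libraries are called biological replicates by the study. Bulk RNA cannot tell less RNA per cell from fewer cells that make it. In PANC-1, a check of the labels on the gene addressed, not reported here, went against that of hairpin 2, so these are called the libraries labelled hairpin 2.

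**Figure D1:**
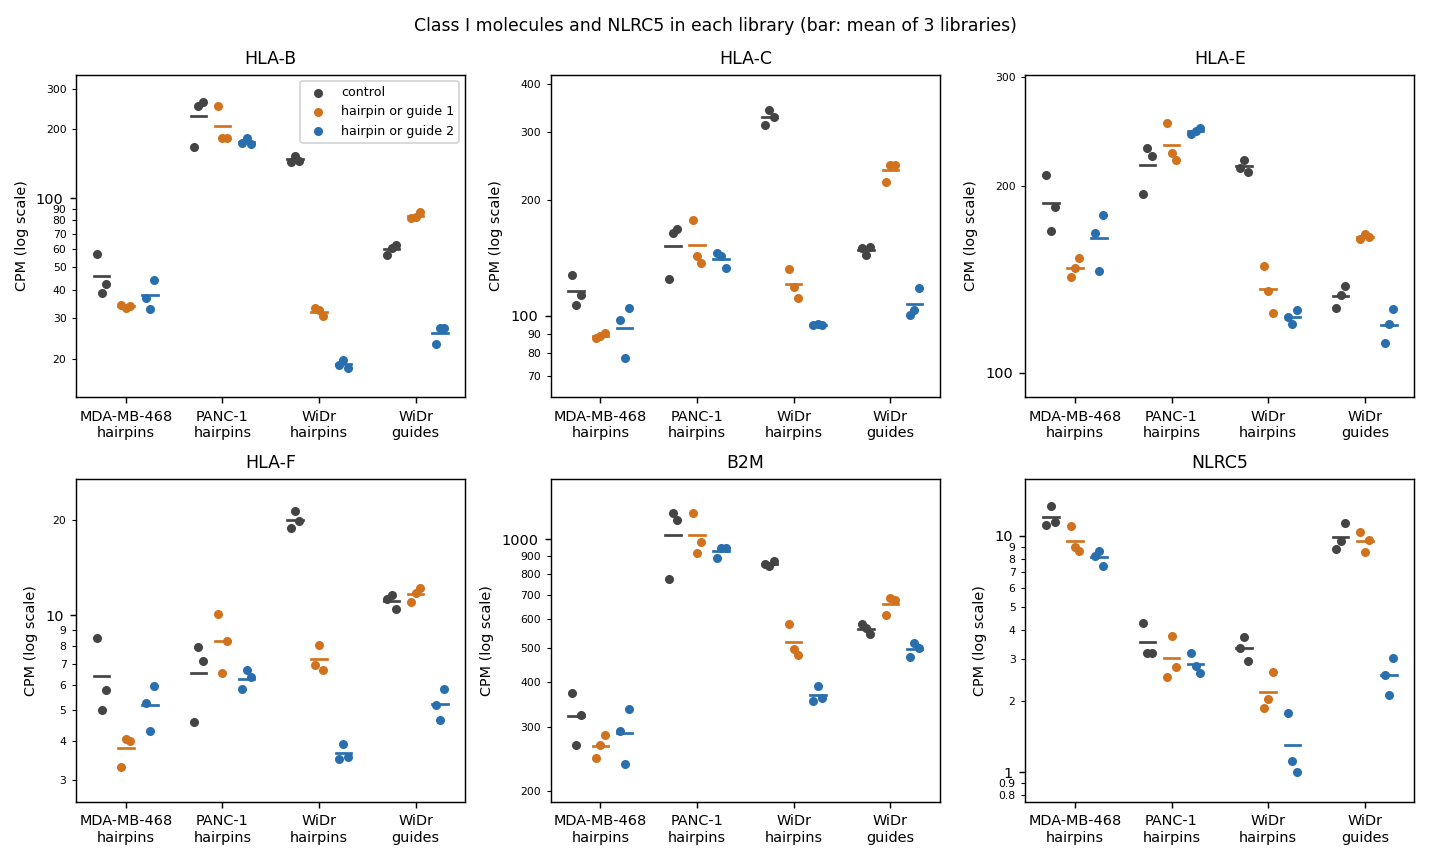
Level of each gene (CPM, log scale) in each of the 36 libraries, 3 per group, coloured by control, construct 1 and construct 2; bars are group means. The WiDr hairpin libraries lie below their control for every gene, while the MDA-MB-468 and PANC-1 groups lie close together.

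In WiDr cells, all 6 genes fell with both hairpins. HLA-B had the largest change with each hairpin, and HLA-E the smallest of the 4 heavy chains. HLA-B, a classical heavy chain that presents peptide to CD8+ T cells, stood at 144, 152 and 146 CPM in the control libraries. It was 33.2, 32.5 and 30.7 CPM with hairpin 1 and 18.8, 19.8 and 18.3 CPM with hairpin 2. The 3 groups did not overlap. HLA-B fell by 2.19 (SE 0.0569, adjusted p = 1.27e-13) with hairpin 1 on the log2 scale, a 4.58-fold drop. With hairpin 2 it fell by 2.97 (SE 0.0596, adjusted p = 9.01e-15), 7.82-fold, the smallest p of the 14317 genes tested.

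HLA-C, the heavy chain that also serves as a main ligand of killer-cell immunoglobulin-like receptors, had 312, 341 and 329 CPM in the WiDr hairpin control. Its levels were 132, 119 and 112 CPM with hairpin 1 and 94.7, 95.6 and 94.7 CPM with hairpin 2. All 6 hairpin libraries were below all 3 controls, with log2 fold changes of -1.43 (SE 0.0633, adjusted p = 7.42e-11) and -1.80 (SE 0.0641, adjusted p = 4.39e-12). HLA-F, the least abundant of the 4 heavy chains, had 18.9, 21.4 and 19.9 CPM in the control. It had 6.96, 8.05 and 6.72 CPM with hairpin 1 and 3.50, 3.9 and 3.54 CPM with hairpin 2. The groups of HLA-F did not overlap, and it fell by 1.47 (SE 0.0911, adjusted p = 4.37e-09) and 2.47 (SE 0.0987, adjusted p = 1.53e-11). HLA-E had 214, 221 and 211 CPM in the control, 148, 136 and 125 CPM with hairpin 1 and 123, 120 and 126 CPM with hairpin 2. Both hairpins left HLA-E below every control library, but the hairpin groups overlapped one another. HLA-E fell by 0.65 (SE 0.0628, adjusted p = 5.52e-07) and 0.82 (SE 0.0630, adjusted p = 5.97e-08).

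B2M, the light chain that every class I heavy chain needs, had 853, 841 and 869 CPM in the WiDr hairpin control. It had 581, 497 and 476 CPM with hairpin 1 and 355, 390 and 362 CPM with hairpin 2, without overlap between groups. Its log2 fold changes were -0.71 (SE 0.0709, adjusted p = 8.80e-07) and -1.22 (SE 0.0716, adjusted p = 2.98e-09). NLRC5, the regulator, was scarce, with 27 to 127 counts per library. Its levels were 3.35, 3.75 and 2.96 CPM in the control, 1.87, 2.04 and 2.65 CPM with hairpin 1, and 1.78, 1.11 and 1.00 CPM with hairpin 2. Every hairpin library was below every control library. NLRC5 fell by 0.60 (SE 0.204, adjusted p = 0.0227) with hairpin 1 and by 1.39 (SE 0.216, adjusted p = 8.68e-05) with hairpin 2. The hairpin 1 call was lost without control replicate 1 (adjusted p = 0.0523), without control replicate 2 (adjusted p = 0.0943) or without hairpin 1 replicate 2 (adjusted p = 0.0700).

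These 6 of 6 stand against a background in which 23.9% of all genes tested fell with hairpin 1 and 22.5% fell with hairpin 2 (edgeR, adjusted p under 0.05). All 6 genes were lower in all 3 hairpin 1 libraries than in any control, which 27.7% of genes were, and likewise with hairpin 2 (28.1%). The median log2 fold change of the 6 was -1.07 with hairpin 1 and -1.59 with hairpin 2, where the medians over all genes were 0.00 and -0.01. By edgeR (adjusted p under 0.05), the level with hairpin 2 was lower than with hairpin 1 for all 6 genes, against 21.8% of all genes. That difference was -0.77 (SE 0.0607, adjusted p = 1.04e-07) for HLA-B, -1.0 (SE 0.106, adjusted p = 3.13e-06) for HLA-F and -0.50 (SE 0.0710, adjusted p = 5.24e-05) for B2M. For HLA-C it was -0.36 (SE 0.0635, adjusted p = 0.000330). NLRC5 differed by -0.79 (SE 0.223, adjusted p = 0.0101), but not without hairpin 2 replicate 2 (adjusted p = 0.0556). HLA-E differed by -0.16 (SE 0.0632, adjusted p = 0.0464) with overlapping libraries, and kept its call in 1 of the 9 fits that each left out 1 library.

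As reads of paralogs may be divided between genes, the 4 heavy chains were also summed. The sum stood at 690, 736 and 706 CPM in the WiDr hairpin control, 321, 295 and 274 CPM with hairpin 1 and 240, 239 and 243 CPM with hairpin 2. It fell by 1.26 (SE 0.0622, adjusted p = 3.35e-10) and 1.57 (SE 0.0628, adjusted p = 1.61e-11). Within the sum, HLA-B made up 20.8% of counts in the control, 10.9% with hairpin 1 and 7.88% with hairpin 2, as group means. The share of HLA-E rose from 30.3% to 46.0% and 51.1%. B2M counts per heavy-chain count were 1.2 ± 0.0529 (SD, n = 3) in the control, 1.74 ± 0.0638 with hairpin 1 and 1.54 ± 0.0838 with hairpin 2. These are shares of counts, not per length.

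**Figure D2:**
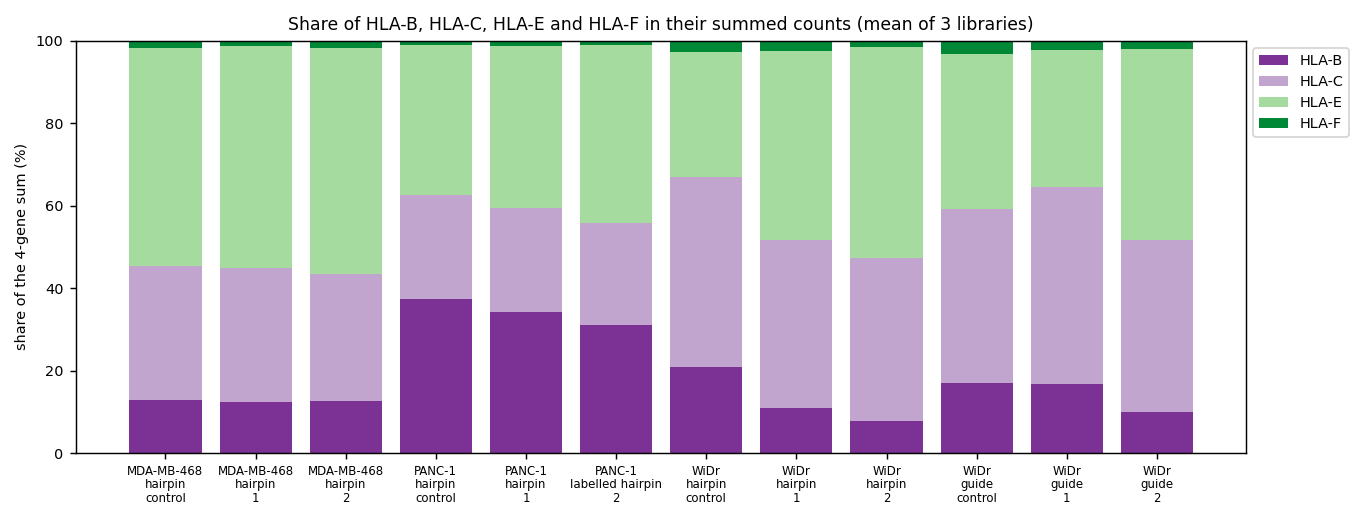
Share of the summed counts of 4 heavy chains (%, mean of 3 libraries) taken by each gene in the 12 groups. The HLA-B share was 20.8% in the WiDr hairpin control, 10.9% with hairpin 1 and 7.88% with hairpin 2, and 37.4% in the PANC-1 control.

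The guides moved the genes in both directions. With guide 1 the classical heavy chains, HLA-E and B2M rose, and with guide 2 the heavy chains HLA-B, HLA-C and HLA-F fell together with B2M and NLRC5. HLA-B had 56.7, 60.6 and 62.4 CPM in the guide control, 82.2, 82.8 and 86.8 CPM with guide 1 and 23.3, 27.3 and 27.3 CPM with guide 2. The 3 groups did not overlap. HLA-B rose by 0.50 (SE 0.0627, adjusted p = 7.27e-06) with guide 1 and fell by 1.19 (SE 0.0665, adjusted p = 1.72e-09) with guide 2. HLA-C had 150, 144 and 151 CPM in the control, 223, 246 and 247 CPM with guide 1 and 101, 104 and 118 CPM with guide 2. These groups did not overlap either, and the log2 fold changes were 0.70 (SE 0.0605, adjusted p = 1.15e-07) and -0.44 (SE 0.0612, adjusted p = 7.10e-05).

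HLA-E had 127, 134 and 138 CPM in the guide control and 164, 167 and 166 CPM with guide 1, a rise of 0.33 (SE 0.0533, adjusted p = 8.87e-05). With guide 2 it had 112, 120 and 127 CPM, below every control library, the third only just. Its difference of -0.13 (SE 0.0536) had an adjusted p of 0.0810, and of 0.0479 with no filter on low counts or 0.00615 without guide 2 replicate 3. HLA-F had 11.3, 11.5 and 10.4 CPM in the control and 11, 11.8 and 12.2 CPM with guide 1, which overlap (log2 fold change 0.09, SE 0.0911, adjusted p = 0.474). With guide 2 it had 5.18, 4.65 and 5.85 CPM and fell by 1.06 (SE 0.0982, adjusted p = 8.33e-07). B2M had 582, 568 and 544 CPM in the control, 617, 688 and 679 CPM with guide 1 and 471, 515 and 498 CPM with guide 2. The groups did not overlap, with changes of 0.24 (SE 0.0541, adjusted p = 0.00170) and -0.17 (SE 0.0542, adjusted p = 0.0295). The B2M call for guide 2 was lost without control replicate 1 (adjusted p = 0.121), control replicate 2 (adjusted p = 0.102) or guide 2 replicate 1 (adjusted p = 0.0876). In a fit of all 36 libraries neither B2M call held (adjusted p = 0.232 and 0.450).

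NLRC5 had 8.76, 9.50 and 11.3 CPM in the guide control and 10.4, 8.56 and 9.65 CPM with guide 1, which overlap. With guide 2 it had 2.57, 2.13 and 3.04 CPM, from 71 to 105 counts, well below every other guide library. Its log2 fold changes were -0.04 (SE 0.120, adjusted p = 0.832) with guide 1 and -1.91 (SE 0.138, adjusted p = 4.65e-08) with guide 2. Among the 6 genes NLRC5 had the most negative change with guide 2, while HLA-B had it with both hairpins.

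With guide 1, 4 of the 6 genes rose and none fell, against 21.4% of all genes that rose; all 4 were higher in every guide 1 library than in any control (26.4% of genes). With guide 2, 5 of the 6 fell, against 11.3% of all genes, and all 6 had every library lower than any control (19.5% of genes). Against guide 1, all 6 genes passed as lower with guide 2 by edgeR (adjusted p under 0.05), as 17.1% of all genes did. The differences were -1.69 for HLA-B (SE 0.0661), -1.14 for HLA-C (SE 0.0612) and -1.87 for NLRC5 (SE 0.137). The other 3 differed by -0.47 (HLA-E), -1.15 (HLA-F) and -0.41 (B2M). The summed heavy chains rose by 0.52 (SE 0.0543, adjusted p = 1.03e-06) with guide 1 and fell by 0.43 (SE 0.0545, adjusted p = 3.20e-05) with guide 2. The guides are taken from the sample titles. For 4 of the 6 guide libraries the genotype field names the other guide, which puts 5 libraries under guide 1 and 1 under guide 2. That grouping leaves 1 library in the guide 2 arm, whose spread is taken from the other arms, and joins libraries of both titles under guide 1, so a call missed there says nothing about stability. Under it none of the 6 genes passed in any of the 3 guide comparisons, and HLA-B read -0.28 with guide 1 (adjusted p = 0.769) and 0.55 with guide 2 (adjusted p = 0.717).

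**Figure D3:**
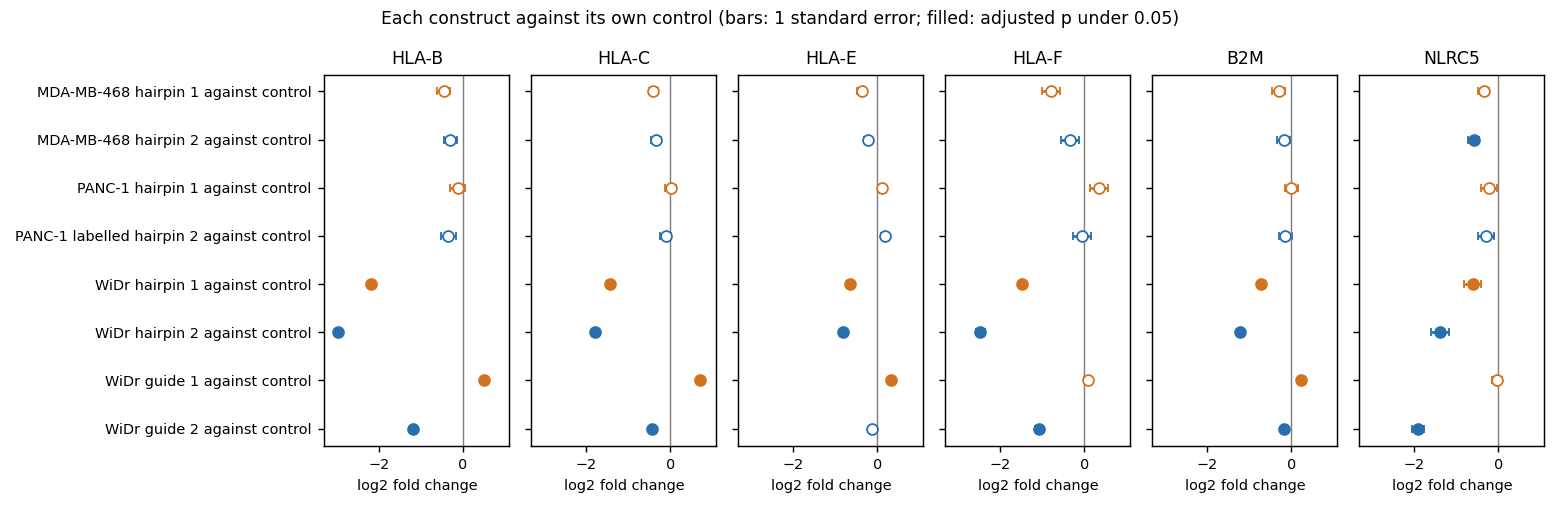
Log2 fold change of each gene with each of 8 constructs against its own control; bars are 1 SE and filled points have an adjusted p under 0.05. For the 5 class I genes the WiDr hairpin 2 points lie furthest left, down to -2.97 for HLA-B, and for NLRC5 the guide 2 point does, at -1.91.

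The levels of HLA-B and NLRC5 did not keep 1 order over the WiDr libraries. NLRC5 was 8.56 to 11.3 CPM in the guide control and guide 1 libraries and 2.96 to 3.75 CPM in the hairpin control libraries, yet HLA-B was highest in the hairpin control. Between these controls, NLRC5 was 1.53 higher in the guide control on the log2 scale (SE 0.166, adjusted p = 7.96e-05). All 5 class I genes were lower there, against 12.8% of all genes lower and 13.6% higher. The differences were -1.33 for HLA-B (SE 0.166, adjusted p = 0.000206), -1.17 for HLA-C, -0.72 for HLA-E, -0.88 for HLA-F and -0.62 for B2M. Both are WiDr cells with a control construct, and the vector and any culture or library batch cannot be told apart here.

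**Figure D4:**
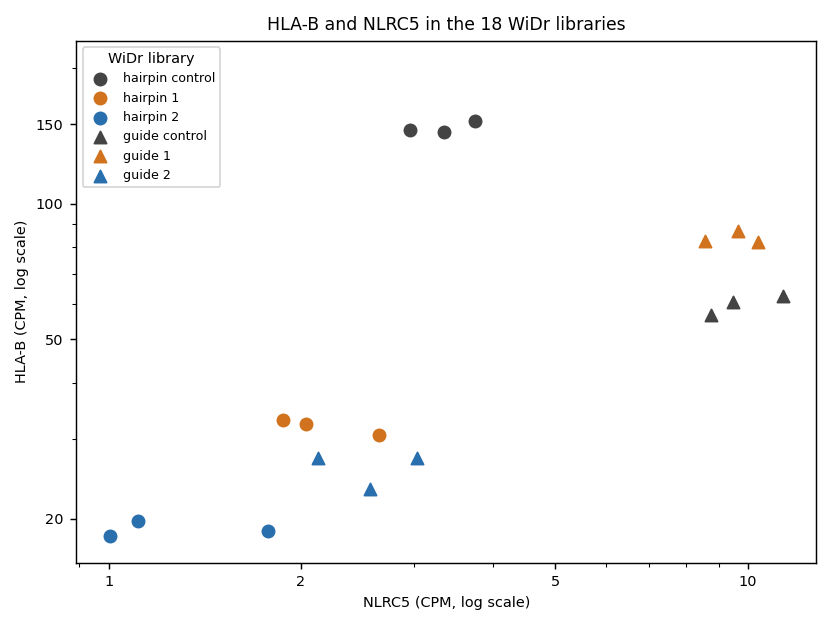
HLA-B against NLRC5 (CPM, both axes log scale) in the 18 WiDr libraries; circles are hairpin and triangles guide libraries. The hairpin control has the highest HLA-B (144 to 152 CPM) at 2.96 to 3.75 CPM of NLRC5, and the guide control has 56.7 to 62.4 CPM of HLA-B at 8.76 to 11.3 CPM of NLRC5.

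In MDA-MB-468 cells, 1 call was made among the 6 genes over both hairpins, and differences ran from -0.18 to -0.79. That call was NLRC5 with hairpin 2, at 11.1, 13.3 and 11.4 CPM in the control, 11, 8.99 and 8.65 CPM with hairpin 1 and 8.23, 8.61 and 7.49 CPM with hairpin 2. Every hairpin library was below every control library, narrowly so with hairpin 1. NLRC5 fell by 0.58 (SE 0.126, adjusted p = 0.0412) with hairpin 2, where 1.8% of all genes fell. It kept that call in 2 of the 9 fits that left out 1 library, with adjusted p up to 0.160. With hairpin 1 the NLRC5 difference was -0.34 (SE 0.125, adjusted p = 0.262).

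HLA-B had 57.1, 38.5 and 42.2 CPM in the MDA-MB-468 control, 34.2, 33.3 and 34.0 CPM with hairpin 1 and 36.8, 33.0 and 43.9 CPM with hairpin 2. Control replicate 1 was the highest library for HLA-B, HLA-C, HLA-E, HLA-F and B2M alike. Its share of ribosomal RNA genes was 2.23%, against 6.58 and 8.49% in control replicates 2 and 3. Whether these go together was not tested. Hairpin 1 gave differences of -0.46 (HLA-B, SE 0.158), -0.40 (HLA-C, SE 0.111), -0.37 (HLA-E, SE 0.102), -0.79 (HLA-F, SE 0.214) and -0.30 (B2M, SE 0.151). None passed, with adjusted p from 0.121 to 0.483, where 1.03% of all genes fell and 1.24% rose. Unadjusted, 5 of the 6 had p under 0.05, as 12.9% of all genes did. Every gene except B2M had all 3 hairpin 1 libraries below all controls, as 8.54% of genes did. DESeq2 called 3 of the 6 with hairpin 1, HLA-C (adjusted p = 0.0308), HLA-E (adjusted p = 0.0320) and HLA-F (adjusted p = 0.0251), where it called 1.95% of all its tested genes lower. With hairpin 2 the 5 class I genes had differences of -0.18 to -0.34 (adjusted p = 0.164 to 0.707), and only HLA-C was without overlap among them (8.24% of genes). Between the hairpins none of the 6 passed by edgeR or DESeq2, where 0.437% and 2.06% of all genes passed. None had an unadjusted p under 0.05 by edgeR (0 of 6), as 9.58% of all genes did.

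In PANC-1 cells neither arm had a call among the 6 genes, although 30.2% and 33.4% of all genes did. By edgeR, 0 of the 6 had an unadjusted p under 0.05 in either comparison, where 42.2% and 44.7% of all genes had. DESeq2 also called 0 of the 6, against 30.2% and 34.6% of all genes. HLA-B had 168, 251 and 263 CPM in the control, 252, 183 and 182 CPM with hairpin 1 and 174, 183 and 172 CPM in the libraries labelled hairpin 2. The control range covered all 6 other libraries. The differences were -0.13 (SE 0.178, adjusted p = 0.616) and -0.35 (SE 0.178, adjusted p = 0.152). Without control replicate 1, the low library, the second became -0.55 (adjusted p = 0.00593), and that of B2M became -0.32 (adjusted p = 0.0340). A fit of all 36 libraries called HLA-B there too (adjusted p = 0.0295).

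B2M had 775, 1182 and 1129 CPM in the PANC-1 control, 1181, 913 and 980 CPM with hairpin 1 and 888, 949 and 948 CPM in the libraries labelled hairpin 2. The groups overlapped, with log2 differences of 0.01 (SE 0.160) and -0.14 (SE 0.160). HLA-C had differences of 0.01 (SE 0.133) and -0.11 (SE 0.133), and HLA-F of 0.35 (SE 0.210) and -0.04 (SE 0.212). HLA-E had 194, 231 and 224 CPM in the control and 243, 246 and 248 CPM in the libraries labelled hairpin 2, all higher, as 23.1% of genes were. Its difference was 0.19 (SE 0.0909, adjusted p = 0.130). NLRC5 had 4.29, 3.18 and 3.19 CPM in the control and 2.54 to 3.78 CPM in the other 6 libraries, with differences of -0.22 (SE 0.193) and -0.29 (SE 0.194). Between these arms none of the 6 passed by edgeR (adjusted p = 0.577 to 0.899) or DESeq2, where 0.106% and 1.25% of all genes passed. By edgeR 0 of the 6 had an unadjusted p under 0.05, as 9.96% of all genes did.

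Because a call in 1 line and none in another is no comparison, the effects themselves were compared, as the mean of both constructs against control. The effect in WiDr hairpins was lower than in WiDr guides for 5 of the 6 genes, against 22% of all genes. The difference of effect was -2.23 for HLA-B (SE 0.0734, adjusted p = 1.45e-16) and -1.74 for HLA-C (SE 0.0796, adjusted p = 7.48e-14). For NLRC5 it was -0.02 (SE 0.195, adjusted p = 0.952), so the mean effects on NLRC5 of hairpins and of guides could not be told apart. The mean for the guides joins a guide with a change near 0 and a guide with a large fall.

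Against MDA-MB-468, the WiDr hairpin effect was lower for the 5 class I genes, where 9.27% of all genes were lower. It was lower by 2.18 for HLA-B (SE 0.145, adjusted p = 6.04e-08) and by 0.43 for HLA-E (SE 0.101, adjusted p = 0.00660). NLRC5 differed by -0.52 (SE 0.216, adjusted p = 0.114), and by -0.69 without WiDr hairpin 2 replicate 1 (adjusted p = 0.0170). Against PANC-1, all 6 were lower (20.9% of all genes), by 2.39 for HLA-B (SE 0.163, adjusted p = 1.37e-08) and 2.18 for HLA-F (SE 0.200, adjusted p = 3.68e-07). The NLRC5 difference of -0.78 (SE 0.267, adjusted p = 0.0292) was lost in 7 of 18 fits without 1 library, with adjusted p up to 0.0855. Between PANC-1 and MDA-MB-468, HLA-E was the 1 gene of 6 that differed, by 0.43 (SE 0.118, adjusted p = 0.0147), where 11.7% of all genes were higher. The comparisons share the WiDr hairpin libraries. The PANC-1 effect is the mean of hairpin 1 and of the libraries labelled hairpin 2, whose label a check went against.

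The lines also differed in their starting levels. Per kilobase of transcript, B2M was the most abundant of the 6 in every control group, at means of 342 (MDA-MB-468), 1091 (PANC-1), 906 (WiDr hairpins) and 599 CPM per kilobase (WiDr guides). NLRC5 was the least abundant, at 1.75, 0.521, 0.492 and 1.45 CPM per kilobase in that order. HLA-F came next, at 3.92, 4.0, 12.3 and 6.78 CPM per kilobase. HLA-C led the heavy chains in both WiDr controls (213 and 96.6 CPM per kilobase), and HLA-B led in PANC-1 (147 CPM per kilobase), although its range touched that of HLA-C. In MDA-MB-468, HLA-C (75.4) and HLA-E (72.2 CPM per kilobase) overlapped and HLA-B was lower, at 29.7 CPM per kilobase.

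HLA-B was 2.23 higher in the PANC-1 than in the MDA-MB-468 control on the log2 scale (SE 0.171, adjusted p = 2.01e-07), and 1.66 higher in the WiDr hairpin control (SE 0.168, adjusted p = 2.32e-06). WiDr was below PANC-1 by 0.57 (SE 0.163, adjusted p = 0.00766). B2M was likewise higher than in MDA-MB-468 by 1.60 in PANC-1 (SE 0.150, adjusted p = 1.28e-06) and by 1.39 in WiDr (SE 0.149, adjusted p = 3.99e-06). PANC-1 and WiDr were not told apart for B2M (-0.21, SE 0.146, adjusted p = 0.208), except without PANC-1 control replicate 1 (-0.37, adjusted p = 0.00994). NLRC5 ran the other way: it was highest in MDA-MB-468, lower by 1.82 in PANC-1 (SE 0.165, adjusted p = 9.60e-07) and by 1.85 in WiDr (SE 0.166, adjusted p = 8.16e-07). HLA-C and HLA-F were highest in WiDr, by 1.48 (SE 0.106) and 1.63 (SE 0.206) over MDA-MB-468. HLA-E was the most even, with differences of 0.05 to 0.18 between the 3 hairpin controls, none of which passed (adjusted p = 0.0846 to 0.638). Without MDA-MB-468 control replicate 1, HLA-E was higher in PANC-1 (0.21, adjusted p = 0.0322) and in WiDr (0.26, adjusted p = 0.0121) than in MDA-MB-468; the WiDr call also passed without PANC-1 control replicate 1 (adjusted p = 0.0483). Between lines most genes differ: 72.4% (PANC-1 against MDA-MB-468), 74.7% (WiDr against MDA-MB-468) and 75.1% (WiDr against PANC-1) of all genes tested passed.

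The counts for gene lists below are read against all genes tested. In WiDr, 24.1% rose and 23.9% fell with hairpin 1, 22.2% and 22.5% with hairpin 2, 21.4% and 20.3% with guide 1, and 14.1% and 11.3% with guide 2. In PANC-1, 16.2% rose and 14% fell with hairpin 1, and 16.7% rose and 16.7% fell in the libraries labelled hairpin 2. In MDA-MB-468 the shares were 1.24% and 1.03% with hairpin 1, and 1.69% and 1.8% with hairpin 2. The median log2 fold change over all genes lay between -0.02 and 0.02 in the 8 comparisons.

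Genes that cut, carry and load the peptides fell with the WiDr hairpins, with 1 exception, and rose with guide 1. The list held 14 genes, among them the TAP transporter, tapasin, the ER aminopeptidases, chaperones and immunoproteasome subunits. With WiDr hairpin 1 all 14 fell (median log2 fold change -0.77) and with hairpin 2, 13 fell (median -0.76). The exception was the chaperone CANX, at 0.11, named here after its value was seen. With guide 1 all 14 rose (median 0.48), and with guide 2, 6 fell and none rose (median -0.14). PSMB9, an inducible catalytic subunit of the immunoproteasome, was at a mean of 5.29 CPM in the hairpin control, 1.67 with hairpin 1 and 0.757 with hairpin 2. It was at 4.43 CPM in the guide control, 7.17 with guide 1 and 1.89 with guide 2, and within each experiment its groups had the order of HLA-B. TAP1, a chain of the peptide transporter, changed by -0.82 and -2.37 with the hairpins, by 0.42 with guide 1 and by -1.04 with guide 2, and passed in each. PSMB8, another immunoproteasome subunit, also passed in each, at -0.74, -1.91, 0.21 and -0.62 in that order. None of the 14 passed in MDA-MB-468 with either hairpin. In PANC-1, TAPBP (0.78 and 0.63) and ERAP2 (0.30 and 0.35) rose in both arms, and TAP1 (-0.30), PDIA3 (-0.38) and CALR (-0.46) fell in the libraries labelled hairpin 2, most of them named after their values were seen.

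**Figure D5:**
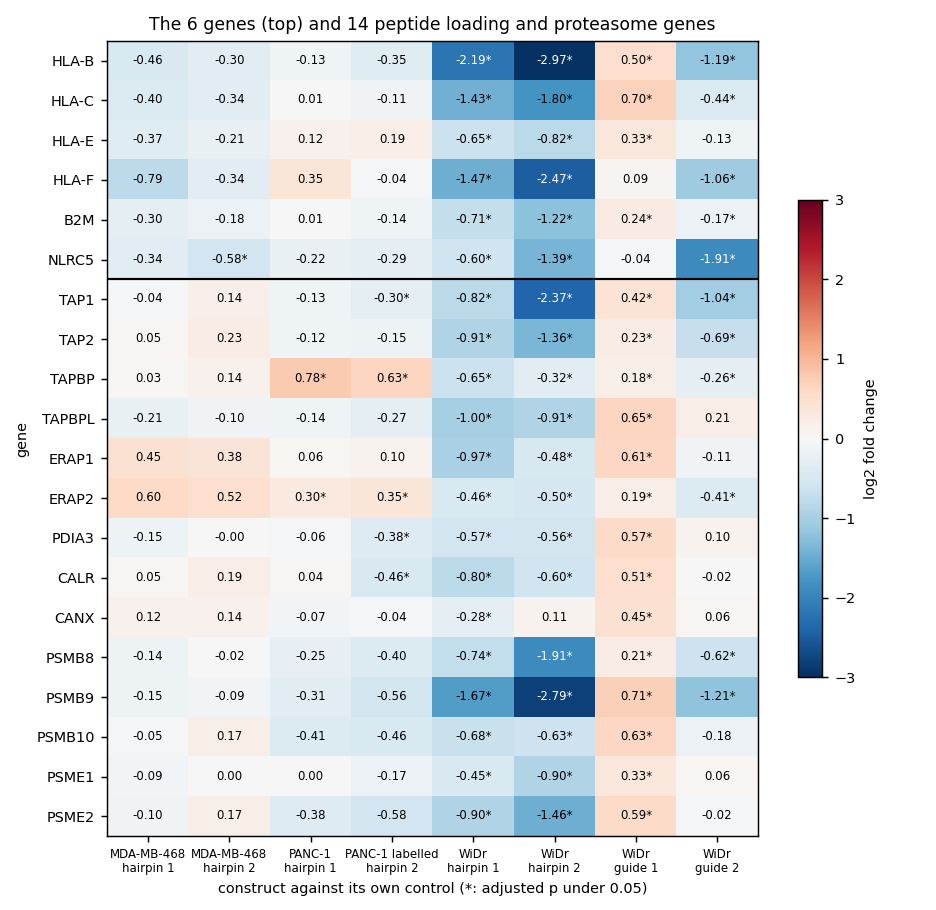
Log2 fold changes of the 6 genes (top) and 14 peptide loading and proteasome genes (below the line) with each of 8 constructs against its control; stars mark an adjusted p under 0.05. Both WiDr hairpin columns are blue almost throughout, the guide 1 column is red below the line, and no gene there is starred in MDA-MB-468.

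The RNA of genes whose proteins work with NLRC5 on the SXY module did not fall with the WiDr hairpins. Of 8 such genes, 4 rose with hairpin 1 and 2 with hairpin 2, and none fell (medians 0.13 and 0.02). NFYB, an NF-Y subunit, rose by 0.34 with hairpin 1 and had -0.02 with hairpin 2. RFX5, the DNA-binding RFX subunit, had 0.07 and -0.01 there and fell by 0.27 with guide 1. NFYA rose by 0.22 with hairpin 2 and fell by 0.23 and 0.20 with the guides. With guide 1, 1 of the 8 rose and 3 fell, and with guide 2, 1 rose and 1 fell. In PANC-1, 1 rose and 2 fell with hairpin 1, while in the libraries labelled hairpin 2, 1 rose and 4 fell. NFYB fell there by 0.63 and 0.82. None of the 8 passed in MDA-MB-468.

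Interferon-stimulated genes fell in WiDr mainly with hairpin 2 and guide 2. Of 18 such genes, 17 fell with WiDr hairpin 2 (median -2.35) and all 18 with guide 2 (median -1.19). With hairpin 1, 10 fell and 2 rose (median -0.22), and with guide 1, 7 rose and 5 fell (median 0.08). IFI44L, an interferon-induced gene, was at a mean of 21.9 CPM in the hairpin control, 24.3 with hairpin 1 and 1.49 with hairpin 2. In the guides it was at 73.3 CPM in the control, 66.7 with guide 1 and 15.9 with guide 2. XAF1 changed by -0.61, -4.29, 0.34 and -1.54 with hairpin 1, hairpin 2, guide 1 and guide 2. IFI6 fell by 1.34 and 4.36 with the hairpins and by 1.63 with guide 2. HLA-B, by comparison, fell by 2.19 with hairpin 1 and rose with guide 1. Of 16 genes tested in PANC-1, 7 rose with hairpin 1, and 4 rose in the libraries labelled hairpin 2. None of them fell, and no class I gene passed there. In MDA-MB-468, 1 of 17 rose with hairpin 1 (HERC5, 0.91), and 1 rose (HERC5, 0.80) and 1 fell (OAS2, -0.56) with hairpin 2, all named after their values were seen.

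Of 14 genes of interferon signalling and NF-kB, 6 fell and 2 rose with each WiDr hairpin (medians -0.07 and -0.08). IRF1, which binds the response element of class I promoters, fell by 0.30 and 0.18 with the hairpins and rose by 0.91 with guide 1. Its mean was 60.5 CPM in the guide control, 113 with guide 1 and 60.3 with guide 2. JAK1, a kinase of the receptors, rose by 0.24, 0.39 and 0.39 with hairpin 1, hairpin 2 and guide 1. With guide 1, 8 of the list rose and 3 fell, and with guide 2, 1 rose and 3 fell. In PANC-1, 5 rose with hairpin 1, 7 rose in the libraries labelled hairpin 2, and none fell in either. In MDA-MB-468, TYK2 rose with hairpin 1 (0.41, named after its value was seen) and none of the 14 passed with hairpin 2.

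Markers of white blood cells, which express class I strongly, were read beside these results, and their part in them was not tested. PTPRC, the pan-leukocyte marker, had group means from 0 to 0.0537 CPM, and CD2 was at 0 in 9 of the 12 groups. The sum of 8 leukocyte genes was 2.95 to 3.45 CPM in the WiDr hairpin control, 6.93 to 8.40 with hairpin 1 and 4.26 to 4.84 with hairpin 2. In the guides it was 5.45 to 6.58 CPM in the control, 3.48 to 4.05 with guide 1 and 5.28 to 6.72 with guide 2. ITGAM and CD14 held most of these sums in WiDr. In MDA-MB-468 the sum was 22.5 to 30.9 CPM in the control, 29.9 to 31.9 with hairpin 1 and 27.7 to 36.7 with hairpin 2. There CD14 had group means of 18.8, 24.3 and 26.5 CPM and CSF1R of 5.51, 6.22 and 5.85 CPM in the control, hairpin 1 and hairpin 2. In PANC-1 the sum was 3.82 to 4.21 CPM in the control, 4.01 to 5.45 with hairpin 1 and 5.09 to 6.14 in the libraries labelled hairpin 2.

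Likeness of pattern was measured as the root-mean-square difference over the 8 log2 fold changes, among 12581 genes tested in all 4 experiments. Both constructs of an experiment share a control, so the 8 values are not independent. The genes most like HLA-B were PSMB9 (0.27), the endolysosomal transporter SLC15A3 (0.32) and HLA-F (0.42), where the size of the HLA-B pattern itself was 1.40. HLA-F was closest to LY6E (0.31), UBA7 (0.38), the activating enzyme for ISG15, and SLC15A3 (0.39). NLRC5 was closest to SAMHD1 (0.44), a nucleotide hydrolase, IFIT5 (0.47) and PARP10 (0.47), with a pattern size of 0.90. HLA-C was closest to ZIC5 (0.28), CEACAM19 (0.29) and TUBA8 (0.30), and B2M to AMT (0.14), ZIC2 (0.18) and LOC554206 (0.19). HLA-E, whose pattern was the smallest at 0.43, was closest to MAPRE3 (0.12), RABL2A (0.15) and ZNF337 (0.16).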

How the data were processed

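The deposited table holds expected counts per gene symbol, made by the authors with Bowtie2 2.1.0 and RSEM 1.2.15 on hg38, per the submitters' processing notes; no source used here gives the annotation or strand setting. Of 26475 symbols, 2349 had no count in any library. Expected counts were rounded, and edgeR 4.0.16 (R 4.3.3) was run per experiment of 9 libraries (filterByExpr, TMM, robust quasi-likelihood F test), with Benjamini-Hochberg adjustment over all genes tested and a threshold of 0.05. The SE is the log2 fold change divided by the square root of F. Differences of effect came from fits of 18 libraries and control levels from the 12 control libraries. CPM used TMM factors over all 36 libraries, and per-kilobase values GENCODE 29 transcript lengths. Alternatives were DESeq2 1.42.0, RLE scaling, no filter, a replicate block, other sets of libraries, removal of ribosomal RNA genes, guide groups by the genotype field, and leaving out each library.

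The 6 genes, the 6 gene lists (73 genes) and the motifs were chosen with earlier results of these data known. Genes named besides the 6, the cell markers and those said to be named after their values were seen were, per list, the 3 with the largest mean of 8 log2 fold changes among those passing at least 1 test, and the 3 nearest in pattern to each of the 6. Replicates of 1 group differed by more than counting noise (chi-square per degree of freedom 3.46 to 183). The code was tested on simulated data. Values of the target gene, and of 1 gene that the naming rule picked, are left out.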

Additional observations from a re-analysis of the deposited data

Results flagged for a closer look

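Differences of effect between experiments that passed edgeR's test (adjusted p under 0.05), each the mean of both constructs against control in 1 experiment minus that in another, numbered 17. No explanation was tested.

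Between WiDr hairpins and WiDr guides the log2 differences were HLA-B -2.23, HLA-C -1.74, HLA-E -0.83, HLA-F -1.47 and B2M -0.999. Between WiDr and MDA-MB-468 hairpins they were HLA-B -2.18, HLA-C -1.23, HLA-E -0.43, HLA-F -1.39 and B2M -0.72. Between WiDr and PANC-1 hairpins they were HLA-B -2.39, HLA-C -1.62, HLA-E -0.94, HLA-F -2.18, B2M -0.95 and NLRC5 -0.78. Between PANC-1 and MDA-MB-468 hairpins HLA-E differed by 0.43. Each PANC-1 mean takes in the libraries labelled hairpin 2, whose label a check went against. In the guide experiment the guides gave HLA-B, HLA-C, HLA-E and B2M differences of opposite sign (HLA-E with guide 2 did not pass), so the mean over guides is smaller in size than either effect alone for these genes.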

How the results depend on the processing

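The calls for HLA-B, HLA-C, HLA-F and B2M with both WiDr hairpins, and for HLA-B and HLA-C with both guides by title, kept direction and call in all fits without 1 library and under every other setting except the genotype grouping. Under that grouping, with 1 library for guide 2, no gene rose with guide 1 (count 0), none fell with guide 2 (0) and none fell between guides (0). The values were then -0.28 (HLA-B) and -0.51 (HLA-F) with guide 1, and 0.55 (HLA-B), 0.75 (HLA-C), 0.33 (HLA-E), 0.15 (HLA-F) and 0.28 (B2M) with guide 2. Between guides they were 0.83 (HLA-B), 0.63 (HLA-C), 0.26 (HLA-E), 0.65 (HLA-F), 0.28 (B2M) and 0.85 (NLRC5). By title, HLA-E with guide 1 and HLA-F and NLRC5 with guide 2 passed in all 9 fits without 1 library. So did HLA-E with both WiDr hairpins and NLRC5 with WiDr hairpin 2. In MDA-MB-468 the count that fell with hairpin 2 became 0 with no filter, with the replicate block and with each construct fitted alone, and 0 to 1 without 1 library. With hairpin 1 it became 3 with DESeq2 and 3 with all 36 libraries in 1 fit. In the PANC-1 libraries labelled hairpin 2 it became 1 with all 36 libraries and 0 to 2 without 1 library. The count higher in PANC-1 than MDA-MB-468 effects became 2 with all 36 libraries and 1 to 2 without 1 library, and the count lower in the WiDr than the PANC-1 control 1 to 2.

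Values near 0 changed sign. PANC-1 hairpin 1 gave HLA-C -0.00072 (RLE), -0.00755 (no filter) and -0.0043 (DESeq2), and B2M -0.0054, -0.011 and -0.0088 in that order, -0.0011 without ribosomal RNA genes and -0.0050 with all 36 libraries. The HLA sum there was -0.0076 with RLE and -0.138 to 0.0642 without 1 library. With all 36 libraries HLA-F was 0.024 between PANC-1 and MDA-MB-468 controls and HLA-E -0.0065 between WiDr and PANC-1 controls. Without 1 library, PANC-1 hairpin 1 ran from -0.13 to 0.076 (HLA-C) and -0.18 to 0.11 (B2M), and the libraries labelled hairpin 2 from -0.27 to 0.10 (HLA-F). Between PANC-1 arms HLA-C ran from -0.20 to 0.0070 and NLRC5 from -0.18 to 0.12, between MDA-MB-468 hairpins HLA-C from -0.015 to 0.17, and with guide 1 NLRC5 from -0.12 to 0.070. Differences of effect ran from -0.15 to 0.069 (NLRC5, WiDr hairpins against guides), -0.073 to 0.26 (HLA-B, PANC-1 against MDA-MB-468) and -0.017 to 0.28 (B2M, the same). Between controls HLA-F ran from -0.21 to 0.20 (PANC-1 against MDA-MB-468), and HLA-E from -0.011 to 0.10 and NLRC5 from -0.12 to 0.14 (WiDr against PANC-1). The causes were not tested.

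Correlations of same-numbered libraries overlapped those of other numbers. Ranges of so few correlations cannot show whether replicate numbers pair the samples. With the replicate block, 3 calls were lost, NLRC5 in MDA-MB-468 hairpin 2 (adjusted p = 0.0506), HLA-E between WiDr hairpins (adjusted p = 0.0662) and the NLRC5 difference between WiDr and PANC-1 effects (adjusted p = 0.0630), and HLA-E with guide 2 passed (-0.13, adjusted p = 0.0305). NLRC5 had 27 to 102 counts in the libraries of WiDr hairpins 1 and 2, the fewest of the 6; the part of depth in its SE was not tested.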

Other observations

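Class I-like molecules, which share the fold but are not peptide presenters of the classical kind, did not move as 1 group in WiDr. Of 10 tested, 3 rose and 3 fell with hairpin 1 and 1 rose and 5 fell with hairpin 2. With guide 1, 2 rose and 4 fell, and with guide 2, 1 fell. MR1, which presents vitamin metabolites to MAIT cells, fell by 1.23 and 0.99 with the hairpins and by 0.45 with guide 2. ULBP1 and ULBP2, ligands of the NKG2D receptor, changed by -0.60 and -1.01 with hairpin 1, by -0.82 and -0.85 with hairpin 2, and by 0.52 and 0.60 with guide 1, and passed in each. In PANC-1, ULBP1 rose by 1.51 with hairpin 1 and by 1.40 in the libraries labelled hairpin 2. Of 9 tested there, 3 rose and 2 fell with hairpin 1, and 2 rose and 2 fell in the other arm. None of 9 passed in MDA-MB-468.

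Of the NOD-like receptor relatives of NLRC5, 5 of 8 were tested in WiDr, with 1 up and 2 down with hairpin 1, 2 up and 1 down with hairpin 2, 1 up and 2 down with guide 1, and 1 down with guide 2. NOD1, a sensor of bacterial wall fragments, fell by 0.62 and 0.89 with the hairpins and by 0.30 with guide 1. NLRC4 rose by 0.97 with guide 1. NAIP rose by 0.28 and 0.30 with the hairpins. In PANC-1, 1 of 7 rose in each arm (NLRX1, 0.36 and 0.36, named after its values were seen), and none of 6 passed in MDA-MB-468.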
